A study of Mus musculus with 18 samples.

Results

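10 genes of branched actin assembly were followed in dendritic cells (DCs) placed in collagen gels of 4 densities or in suspension. The genes were chosen with earlier results of these data known. The rule itself used names only and took the rows of the count matrix for Was, Wasl, Wasf2, Nckap1l, Actr2, Actr3, Arpc1b, Arpc2, Arpc5, and Hcls1. They are 10 of the 29875 Ensembl genes in the matrix, and 10 of 10 were among the 13844 genes that passed the filter on low counts. DCs are antigen-presenting cells that, once mature, follow the chemokine CCL19. They had been grown from the bone marrow of wild-type C57Bl6/J mice (8 to 12 weeks old) with GM-CSF and matured with LPS (200 ng/ml) for 24 hours from differentiation day 8. The cells were then loaded into migration chambers with bovine collagen at 1.7, 2.6, 3.5, or 4.4 mg/ml and a CCL19 gradient, and RNA was taken after 5 hours. Controls were DCs in the chambers without a gel, in a group titled plus CCL19 and a group titled without CCL19. For suspension, the sample title and the name of its library disagree on whether CCL19 was present, in each replicate, so the groups keep their titles here and nothing is said of the effect of CCL19. Each of the 6 groups had 3 libraries titled as biological replicates, 18 in all, and whether these came from separate mice is not stated. By the library names, a replicate number stands for 1 date and sequencing lane, so a replicate is also a batch holding each group once.

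The Arp2/3 complex nucleates a new actin filament on the side of an existing one, which gives the branched networks that push membranes forward. Arp2 and Arp3 (Actr2, Actr3) resemble actin and start the new filament, and the ARPC subunits hold them together and bind the mother filament. The complex is switched on by nucleation-promoting factors: WASP (Was) in blood cells and the widely expressed N-WASP (Wasl) act downstream of Cdc42, and WAVE2 (Wasf2) acts downstream of Rac within a regulatory complex that contains Hem1 (Nckap1l) in blood cells. HS1 (Hcls1), the blood cell relative of cortactin, binds and stabilizes the branches. In DCs, WASP and HEM1 are known for their part in migration, and loss of WASP or ARPC1B causes immunodeficiency in humans.

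To show the control regions of the genes that the results turn on, RefSeq promoter windows of GRCm38.p6, from 250 bases before to 50 bases after the annotated start, are given 5′ to 3′ for Wasf2 (chr4:133130383-133130682, plus strand), Arpc2 (chr1:74236267-74236566, plus strand), Actr3 (chr1:125435678-125435977, minus strand), and Arpc1b (chr5:145114006-145114305, plus strand). Capitals mark matches on either strand to a GC box with the letters GGGCGG, the CCAAT box, an ETS motif with the letters CCGGAAGT, and a PU.1 motif with the letters GAGGAAGT.
Wasf2: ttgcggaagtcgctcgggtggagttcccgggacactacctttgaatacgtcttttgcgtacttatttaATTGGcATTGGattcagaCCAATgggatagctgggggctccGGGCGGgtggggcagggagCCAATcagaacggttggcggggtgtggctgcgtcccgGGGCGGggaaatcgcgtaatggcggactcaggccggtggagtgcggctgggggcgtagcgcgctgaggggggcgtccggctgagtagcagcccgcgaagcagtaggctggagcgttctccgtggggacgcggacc
Arpc2: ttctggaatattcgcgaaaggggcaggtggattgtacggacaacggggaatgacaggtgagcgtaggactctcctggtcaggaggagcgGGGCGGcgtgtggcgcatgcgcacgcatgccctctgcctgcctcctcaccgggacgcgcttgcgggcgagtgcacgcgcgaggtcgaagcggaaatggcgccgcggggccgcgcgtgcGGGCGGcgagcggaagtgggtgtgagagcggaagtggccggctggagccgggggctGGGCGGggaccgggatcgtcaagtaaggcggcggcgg
Actr3: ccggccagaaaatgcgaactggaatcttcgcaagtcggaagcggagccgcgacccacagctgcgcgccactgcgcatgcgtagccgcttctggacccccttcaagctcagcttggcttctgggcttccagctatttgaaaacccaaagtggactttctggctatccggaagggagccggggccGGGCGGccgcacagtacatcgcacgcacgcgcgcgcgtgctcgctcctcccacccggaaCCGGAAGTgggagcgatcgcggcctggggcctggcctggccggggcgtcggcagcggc
Arpc1b: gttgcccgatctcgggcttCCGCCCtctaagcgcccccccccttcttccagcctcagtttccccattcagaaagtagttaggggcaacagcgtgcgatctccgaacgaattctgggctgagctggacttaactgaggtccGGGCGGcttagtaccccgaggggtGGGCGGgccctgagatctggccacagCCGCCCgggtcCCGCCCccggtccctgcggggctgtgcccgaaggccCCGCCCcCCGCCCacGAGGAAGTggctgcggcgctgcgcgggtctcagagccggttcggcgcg

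A window was found for 9 of the 10 genes. A GC box lay in 7 of these 9 windows and in 35.7% of 32851 promoters of the same length, and a CCAAT box in 4 of 9 and in 37.4%. The window of Wasf2 held 4 CCAAT boxes and 2 GC boxes. The windows of Arpc2 and Arpc1b held 3 and 7 GC boxes and no CCAAT box, and that of Actr3 held 1 GC box and an ETS motif close to the start. The ETS motif was found in 2 of 9 windows (Actr2, Actr3) and in 3.89% of promoters. The PU.1 motif was found in 1 of 9 (Arpc1b) and in 3.2% of promoters. The CArG box, the site of serum response factor, was in 0 of 9 windows and in 1.63% of promoters. A TATA box (TATAAA) was found in Hcls1 and in 13.6% of promoters, and an E-box (CACGTG) in Arpc5 and in 7.15%, and neither of these motifs is in capitals. These matches are descriptions of letters and not of binding.

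Total counts ranged from 13062944 to 28059839 per library (median 17344953.5). Levels are given as CPM, counts scaled to a common library size by TMM factors. The first principal component (35.2% of the variance) set replicate 1 apart from replicates 2 and 3, and replicate 2 at 4.4 mg/ml lay among the libraries of replicate 1, at −70 against −72.9 to −40.5. Replicate 3 at 2.6 mg/ml stood alone on the second component, at 74.4. Of the 12 DC markers, 12 were measured, with a summed level of 29525 to 93623 CPM in suspension and 40075 to 103762 CPM in collagen (1 of 12 lower, and 1 higher and 1 lower with the replicate as a block). Summed levels of 8 eosinophil markers were 117 to 1339 CPM in suspension and 14.0 to 168 CPM in collagen, and 7 of 7 tested were lower in collagen. Those of 8 neutrophil markers were 631 to 9742 and 1044 to 5164 CPM (1 of 8 lower), and those of 8 macrophage markers 215 to 740 and 225 to 1395 CPM (0 of 7 called, 5 higher with the block). Mast cell and basophil markers summed to 96.2 to 367 CPM in suspension and 79.8 to 449 CPM in collagen (1 of 7 higher, and 1 higher and 2 lower with the block), T and B cell markers to at most 15.7 CPM (0 of 4 called, 1 lower with the block), fibroblast markers to at most 7.43 CPM in suspension and 113 CPM in collagen (0 of 3 called in either fit), and erythroid markers to at most 0.137 CPM. The fibroblast sum of 113 CPM was in replicate 2 at 2.6 mg/ml alone, and the other collagen libraries held at most 10.8 CPM. In bulk RNA, fewer cells of a type and less RNA per cell cannot be told apart.

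Per kilobase of the principal transcript, the genes spanned a wide range of mean levels over the 18 libraries. Arpc2 was highest at 743 CPM per kilobase, followed by Hcls1 at 548, Arpc5 at 233, and Nckap1l at 219. Actr3 and Arpc1b lay at 128 and 116 CPM per kilobase, and Actr2 at 68.2. The nucleation-promoting factors were the lowest, with Was at 44.0, Wasf2 at 34.7, and Wasl at 3.23 CPM per kilobase. WASP mRNA was thus the more abundant of the WASP family pair in each library, taking 78.8 to 97.6% of the per-length sum of Was and Wasl. The order of the 10 genes was the same per kilobase of all annotated exons, with Arpc2 at 526 and Wasl at 2.28 CPM per kilobase.

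**Figure D1:**
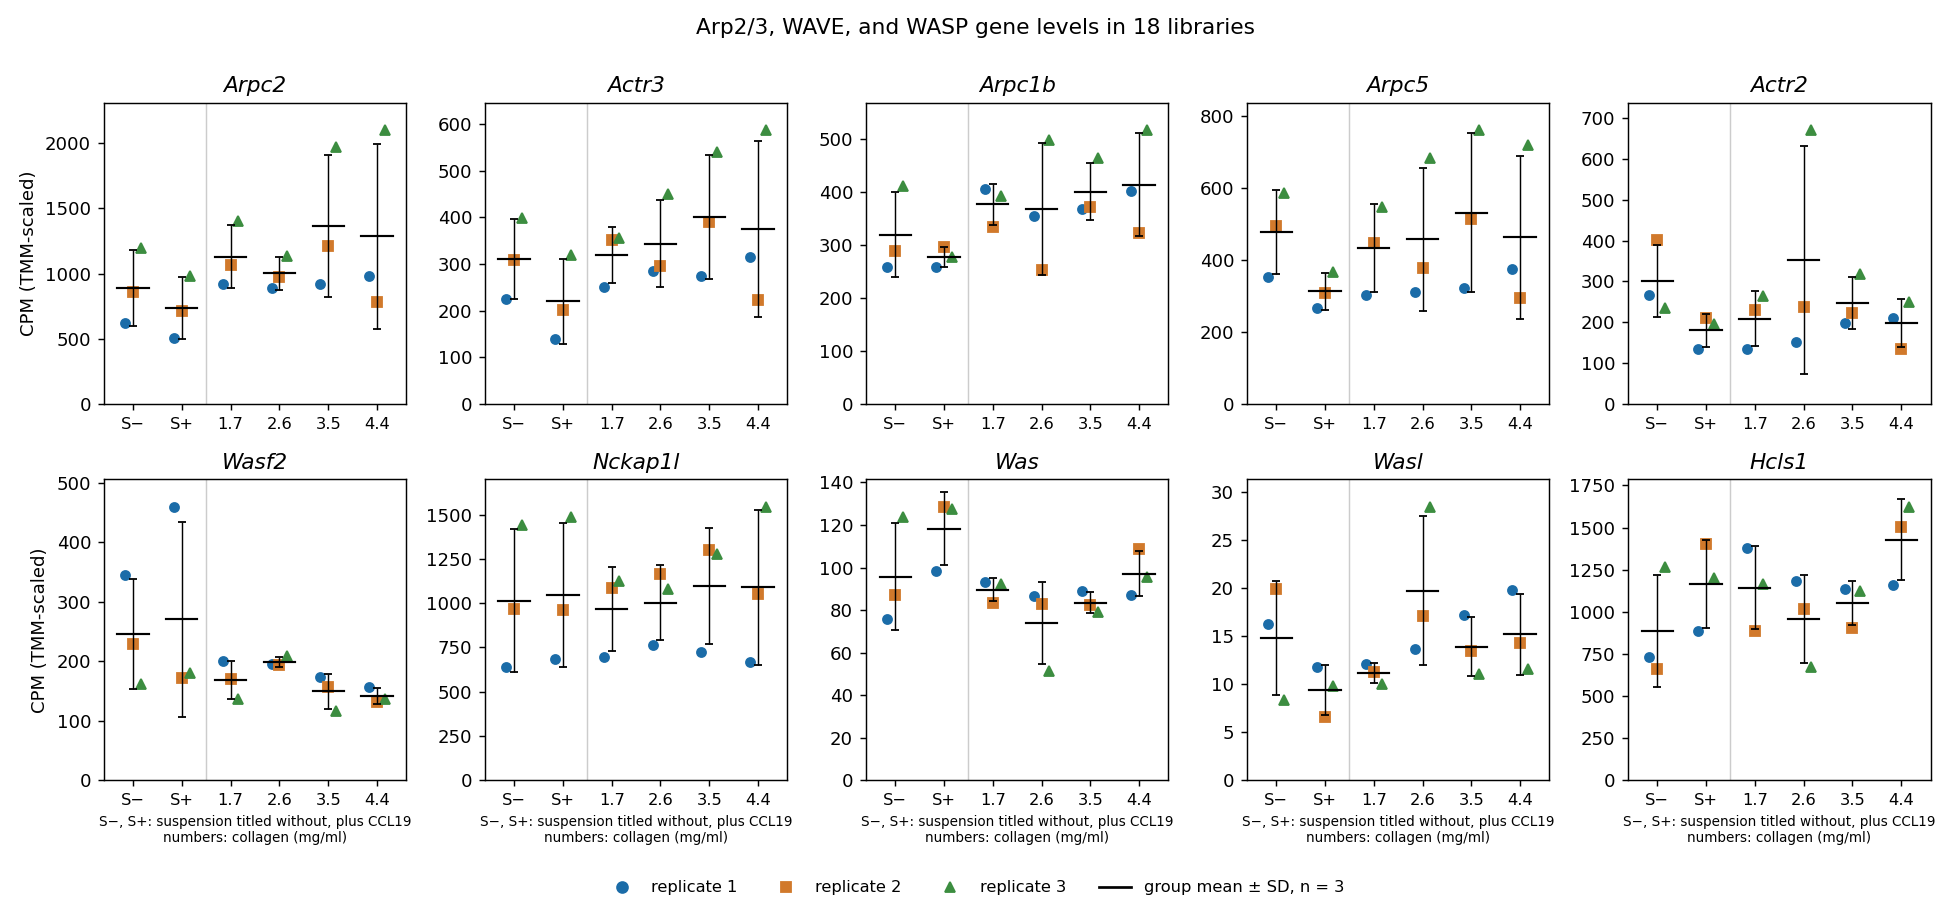
Level of each gene in CPM (TMM-scaled, vertical axis) in the 18 libraries by group (horizontal axis, with S− and S+ for suspension titled without and plus CCL19). Points are libraries, with the replicate number as shape and color, and lines with bars are the mean ± SD of 3 libraries. Arpc2, Actr3, and Arpc1b sit mostly higher in collagen, the suspension libraries of Wasf2 in replicate 1 (460.2 and 345 CPM) stand above all others, and Nckap1l is lowest in replicate 1 in every group.

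The first comparison asked whether DCs in collagen, as the mean of the 4 densities, differ from DCs in suspension, as the mean of the 2 suspension groups. The WAVE2 gene Wasf2 was lower in collagen, and genes for 3 Arp2/3 subunits (Arpc2, Actr3, Arpc1b) were higher in collagen when the replicate was a term of the model. In edgeR's quasi-likelihood F-test at an FDR of 0.1 without a replicate term, 1 of the 10 genes was called (Wasf2, lower), where 20.2% of all genes tested were called (7.78% higher and 12.4% lower). With the replicate as a block, 4 of the 10 were called, 3 higher and 1 lower, where 34.8% of all genes were called (15.6% higher and 19.3% lower). The count of the 10 genes called was thus below the general share without the block and close to it with the block. Of all genes called without the block, 1077 were higher and 1713 lower, whereas offsets for GC content and length together with the block gave 2611 higher genes and 2512 lower ones. The median log2 fold change was 0.22 over the 10 genes and 0.00269 over all genes tested. Of the 10 values 8 were positive, beside 50.2% of all genes tested, and these include 0.01 for Nckap1l and 0.08 for Actr2. Some of the 10 genes varied together, so their values are not independent, and a shift of the set was not tested.

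**Figure D2:**
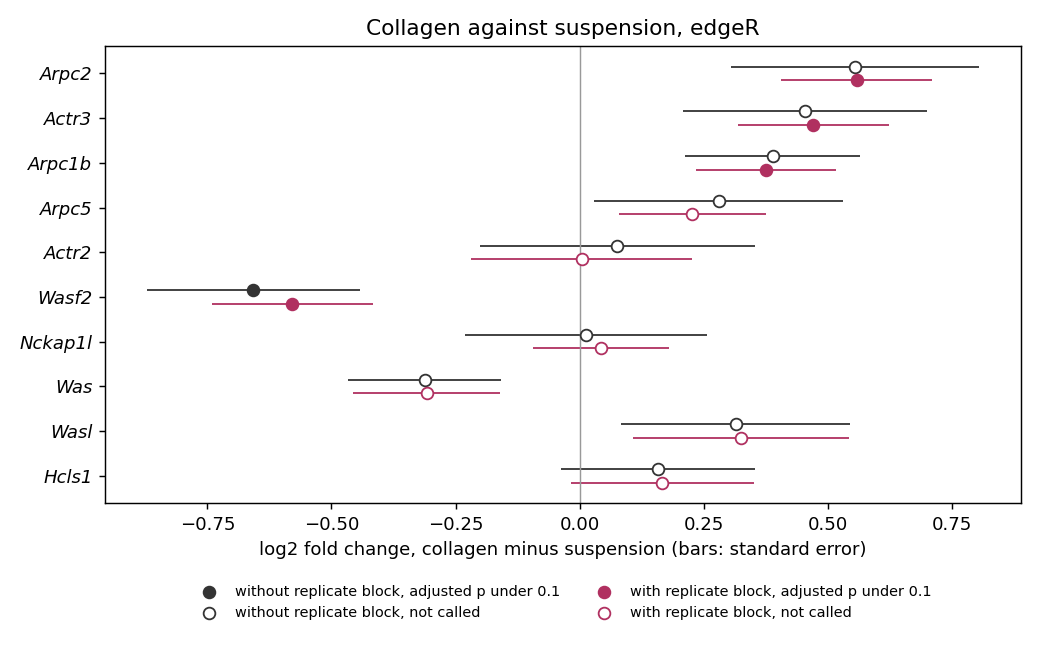
Log2 fold change of the mean of 4 collagen groups over the mean of 2 suspension groups (horizontal axis) for each gene (vertical axis), with bars of 1 standard error, from edgeR without (black) and with (red) the replicate block. Filled points passed an FDR of 0.1, which Wasf2 did in both fits and Arpc2, Actr3, and Arpc1b did with the block.

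Among the activators, Wasf2 (ENSMUSG00000028868, GRCm38 chr4:133130505-133199756) encodes WAVE2, the Rac-driven factor of lamellipodia. It measured 460.2, 172, and 181 CPM in suspension titled plus CCL19 (replicates 1, 2, and 3) and 345, 228, and 163 CPM in suspension titled without CCL19. In collagen it measured 201, 170.3, and 137 CPM at 1.7 mg/ml, 195, 194, and 208 CPM at 2.6 mg/ml, 174, 157, and 117 CPM at 3.5 mg/ml, and 157, 132, and 136 CPM at 4.4 mg/ml. The 2 suspension libraries of replicate 1 exceeded the other 16 libraries, 6 of 12 collagen libraries lay below all 6 suspension libraries, and the groups overlapped. The log2 fold change was −0.66 (SE 0.21, adjusted p = 0.0525), a collagen level of 0.634 times that in suspension, and −0.58 (SE 0.16, adjusted p = 0.0135) with the replicate block. Within replicates 1, 2, and 3 the mean log2 difference was −1.14, −0.29, and −0.23, negative in 3 of 3. The call did not survive the omission of replicate 1 (−0.23, adjusted p = 0.557) or replicate 2 (−0.78, adjusted p = 0.227). It was also lost with GC and length offsets (−0.35, adjusted p = 0.246), and with these offsets and the block (−0.31, adjusted p = 0.154). In the suspension libraries of replicate 1, where Wasf2 was highest, the eosinophil markers summed to 147 and 117 CPM, the lowest values of the 6 suspension libraries, and the neutrophil markers to 723 and 631 CPM, also the lowest. The DC markers summed to 32113 and 29525 CPM there, again the lowest of the suspension libraries. The macrophage markers summed to 739.8 and 592 CPM there, the highest of the suspension libraries. In the collagen libraries of replicate 1 they summed to 1344, 1351, 1395, and 1334 CPM from 1.7 to 4.4 mg/ml. Wasf2 measured 201, 195, 174, and 157 CPM in the same libraries. The part of these markers in the result was not tested.

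Was (ENSMUSG00000031165, GRCm38 chrX:8081453-8090498) encodes WASP, the Cdc42-driven factor of blood cells. It measured 98.4, 129, and 128 CPM in suspension titled plus CCL19 (replicates 1, 2, and 3) and 76.0, 86.9, and 124 CPM in suspension titled without CCL19. In collagen it measured 93.4, 83.4, and 92.2 CPM at 1.7 mg/ml, 86.7, 83.1, and 51.5 CPM at 2.6 mg/ml, 89.1, 82.5, and 79.0 CPM at 3.5 mg/ml, and 87.3, 108, and 95.7 CPM at 4.4 mg/ml. Of the 12 collagen libraries, 12 lay below the suspension median of 111 CPM, and 1 lay below all suspension libraries. The log2 fold change was −0.31 (SE 0.15, adjusted p = 0.198), and −0.31 (SE 0.15, adjusted p = 0.135) with the block, neither past the threshold. The difference within replicates was 0.04, −0.25, and −0.70, so it was close to 0 in replicate 1. In the suspension libraries where Was measured 129, 128, and 124 CPM, the eosinophil markers summed to 1339, 936, and 500 CPM. Where it measured 98.4, 76.0, and 86.9 CPM in suspension, they summed to 147, 117, and 185 CPM. Other markers also differed between these libraries, in the same order. DC markers summed to 67844, 80008, and 93623 CPM and to 32113, 29525, and 46877 CPM. Neutrophil markers summed to 9742, 3974, and 2683 CPM and to 723, 631, and 1944 CPM. Macrophage markers, at 411, 245, and 215 CPM and at 740, 592, and 252 CPM, overlapped. The part of these markers in the level of Was was not tested. Wasl (ENSMUSG00000029684, GRCm38 chr6:24613805-24665009), which encodes N-WASP, was scarce, with 6.58 to 19.9 CPM (median 10.8) in suspension and 10.0 to 28.5 CPM (median 13.6) in collagen. Its log2 fold change was 0.31 (SE 0.23, adjusted p = 0.408). The highest level of Wasl, 28.5 CPM, was in replicate 3 at 2.6 mg/ml, the library that also held the lowest level of Was, 51.5 CPM.

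Nckap1l (ENSMUSG00000022488, GRCm38 chr15:103453794-103498810) encodes Hem1, the blood cell subunit of the WAVE regulatory complex. Its level varied with the replicate. Replicate 1 ranged from 638 to 761 CPM (median 689.9), replicate 2 from 961 to 1298 CPM (median 1069.9), and replicate 3 from 1081 to 1545 CPM (median 1361). Replicate 1 did not overlap with the others, and collagen and suspension overlapped. Replicate number took 86.6% and group 1.83% of the spread of its log2 CPM, against medians of 25.5% and 33.6% over all genes tested. The log2 fold change in collagen was 0.01 (SE 0.24, adjusted p = 0.982).

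Among the subunits of the Arp2/3 complex, Arpc2 (ENSMUSG00000006304, GRCm38 chr1:74236084-74268209) encodes a core scaffold subunit that contacts the mother filament. It measured 509, 710.4, and 982 CPM in suspension titled plus CCL19 (replicates 1, 2, and 3) and 619.8, 859, and 1198 CPM in suspension titled without CCL19. In collagen it measured 924, 1068, and 1401 CPM at 1.7 mg/ml, 889, 976, and 1138 CPM at 2.6 mg/ml, 920.2, 1211, and 1975 CPM at 3.5 mg/ml, and 981, 779, and 2099 CPM at 4.4 mg/ml. It was higher in the collagen than in the suspension libraries of the same replicate on average, by 0.72, 0.35, and 0.56 log2 units in replicates 1, 2, and 3, and 11 of 12 collagen libraries exceeded the suspension median of 785 CPM. Without the block the log2 fold change was 0.55 (SE 0.25, adjusted p = 0.156), which did not pass, and with the block it was 0.56 (SE 0.15, adjusted p = 0.0116), 1.47-fold higher in collagen. The exception among the collagen libraries was replicate 2 at 4.4 mg/ml, at 779 CPM, the library that lay among those of replicate 1. Without it, the blocked value was 0.62 (adjusted p = 0.00182). Over 15 alternatives Arpc2 was called in 6, with log2 fold changes of 0.37 to 0.62. When replicate 1, 2, or 3 was omitted, in fits without the block, 0 of the 10 genes were called higher.

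Actr3 (ENSMUSG00000026341, GRCm38 chr1:125392905-125435727) encodes Arp3. It measured 139, 202, and 318 CPM in suspension titled plus CCL19 (replicates 1, 2, and 3) and 225, 309, and 398 CPM in suspension titled without CCL19. In collagen it measured 251, 350.4, and 356 CPM at 1.7 mg/ml, 284, 295, and 450.3 CPM at 2.6 mg/ml, 274, 390.4, and 539 CPM at 3.5 mg/ml, and 314, 223, and 586 CPM at 4.4 mg/ml. The 4 collagen libraries of replicate 1 lay above its 2 suspension libraries, whereas collagen and suspension overlapped in replicates 2 and 3. The mean difference within replicates was 0.66, 0.30, and 0.41. The log2 fold change was 0.45 (SE 0.25, adjusted p = 0.243), and 0.47 (SE 0.15, adjusted p = 0.0287) with the block, 1.39-fold. Over 15 alternatives Actr3 was called in 5, with log2 fold changes of 0.36 to 0.54.

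Arpc1b (ENSMUSG00000029622, GRCm38 chr5:145114215-145130705) encodes the form of the ARPC1 subunit that is abundant in blood cells. It measured 259, 297, and 278 CPM in suspension titled plus CCL19 (replicates 1, 2, and 3) and 259, 288, and 411 CPM in suspension titled without CCL19. In collagen it measured 406, 334, and 393 CPM at 1.7 mg/ml, 355, 252, and 499.9 CPM at 2.6 mg/ml, 368, 372, and 464 CPM at 3.5 mg/ml, and 404, 324, and 517 CPM at 4.4 mg/ml. In suspension 5 of 6 libraries lay between 259 and 297 CPM, and 11 of 12 collagen libraries exceeded the suspension median of 283 CPM. The exception was replicate 2 at 2.6 mg/ml. The log2 fold change was 0.39 (SE 0.18, adjusted p = 0.162), and 0.38 (SE 0.14, adjusted p = 0.0563) with the block, 1.3-fold. With GC and length offsets but no block it was 0.61 (adjusted p = 0.0674), the only one of the 10 genes called in that fit. Over 15 alternatives Arpc1b was called in 7, with log2 fold changes of 0.34 to 0.61. The gene overlaps Pdap1 on the opposite strand, and whether the counting used strand is not stated, so reads from the overlap cannot be assigned with certainty. Pdap1 measured 28.4 to 72.7 CPM, with a log2 fold change of 0.06 (adjusted p = 0.893).

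The remaining subunits and Hcls1, which is not a subunit of the complex, did not pass the threshold in either fit. Actr2 (ENSMUSG00000020152, GRCm38 chr11:20062304-20112913), which encodes Arp2, ranged over 135 to 400.2 CPM (median 222) in suspension and 134 to 669 CPM (median 226) in collagen. Its highest level, 669 CPM, was in replicate 3 at 2.6 mg/ml, and its log2 fold change of 0.08 (SE 0.28, adjusted p = 0.890) changed sign without this library (−0.12) and with GC and length offsets (−0.10). Within replicates the difference was −0.15, −0.53, and 0.69. Arpc5 (ENSMUSG00000008475, GRCm38 chr1:152766542-152775597), a peripheral subunit, ranged over 265 to 586 CPM (median 360.2) in suspension and 295 to 759 CPM (median 412) in collagen, with a log2 fold change of 0.28 (SE 0.25, adjusted p = 0.511). Replicate number took 62.6% of its spread. Hcls1 (ENSMUSG00000022831, GRCm38 chr16:36934983-36963212), which encodes HS1, ranged over 659 to 1403 CPM (median 1045) and 673 to 1623 CPM (median 1146), with a log2 fold change of 0.16 (SE 0.20, adjusted p = 0.648).

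**Figure D3:**
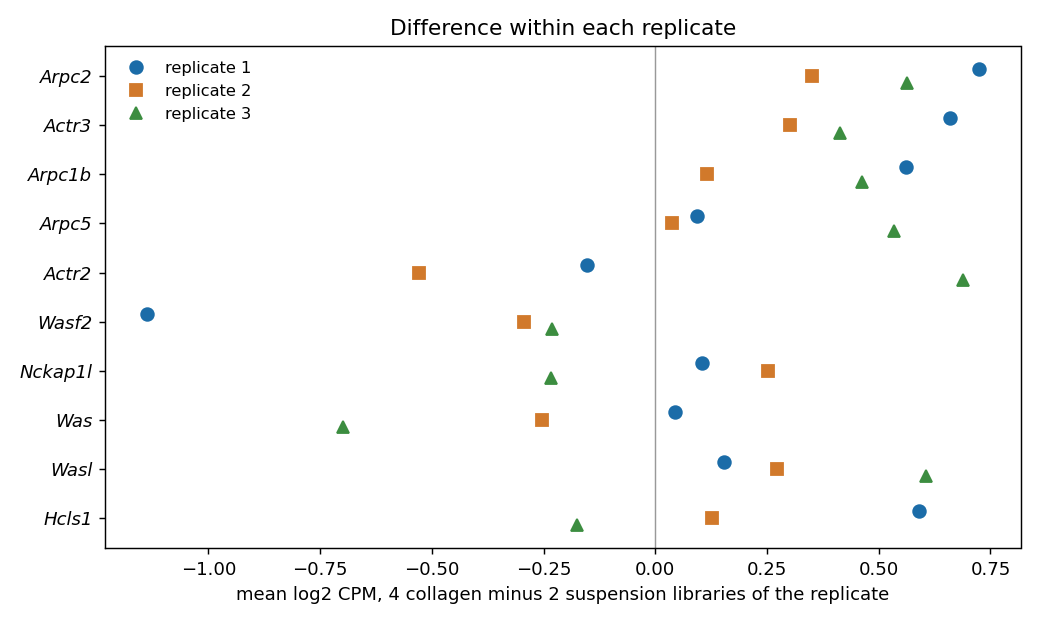
Mean log2 CPM of the 4 collagen libraries minus that of the 2 suspension libraries (horizontal axis) within replicate 1 (circles), 2 (squares), and 3 (triangles), for each gene (vertical axis). Arpc2, Actr3, Arpc1b, Arpc5, and Wasl are positive in 3 of 3 replicates, Wasf2 is negative in 3 of 3, and the other 4 genes differ in sign between replicates.

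An exact permutation test (two-sided, 18564 arrangements of the 12 collagen and 6 suspension libraries) was also run on the log2 CPM of each gene by itself. The unadjusted p was 0.0126 for Wasf2, 0.0154 for Arpc1b, 0.0276 for Arpc2, 0.0449 for Was, and 0.0698 for Actr3, and it was 0.178 or higher for the other 5 genes. With arrangements kept within replicates (3375), the p was 0.00415 for Wasf2, 0.00356 for Arpc1b, 0.00178 for Arpc2, 0.00978 for Actr3, and 0.0601 for Was. Scaling by total counts in place of TMM moved the median of all genes tested by −0.15 on the log2 scale. On that scale the exact permutation p was 5.39e-04 for Was and 0.00533 for Wasf2, and it was 0.149 for Arpc1b, 0.135 for Arpc2, and 0.282 for Actr3, while the differences of Nckap1l and Actr2 turned negative (−0.12 and −0.15).

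Each density was then compared with suspension. In edgeR without the block, 0 of the 10 genes were called at any density, where the share of all genes called was 0.0361% at 1.7, 7.87% at 2.6, 4.9% at 3.5, and 14.8% at 4.4 mg/ml. At an unadjusted p under 0.05 there were 0, 2, 2, and 1 of the 10 genes, beside 1113, 2801, 2437, and 3434 of the 13844 genes tested. DESeq2 called 0, 0, 0, and 1 of the 10, beside 141, 1828, 1343, and 2808 of the 13844. With the block, 0 of 10 were called at 1.7 mg/ml (2.91% of all genes), 1 at 2.6 (21.6%), 3 at 3.5 (18.4%), and 4 at 4.4 mg/ml (31.9%). Arpc2 was called at 3.5 mg/ml, with 0.74 (SE 0.20, adjusted p = 0.0281), and at 4.4 mg/ml, with 0.62 (SE 0.21, adjusted p = 0.0372). Actr3 was called at 3.5 mg/ml, with 0.62 (SE 0.21, adjusted p = 0.0600), and at 4.4 mg/ml, with 0.50 (SE 0.21, adjusted p = 0.0886). Wasf2 was lower at 3.5 mg/ml, with −0.72 (SE 0.24, adjusted p = 0.0595), and at 4.4 mg/ml, with −0.78 (SE 0.24, adjusted p = 0.0257). Both calls of Wasf2 were lost when GC and length offsets were added to the block (−0.33, adjusted p = 0.371, and −0.52, adjusted p = 0.103), as was that of Arpc2 at 4.4 mg/ml (0.38, adjusted p = 0.165). Over 15 alternatives Wasf2 was called in 4 at 3.5 mg/ml and in 6 at 4.4 mg/ml. Arpc1b was called at 4.4 mg/ml, with 0.46 (SE 0.19, adjusted p = 0.0933). Wasl was called at 2.6 mg/ml, with 0.79 (SE 0.30, adjusted p = 0.0836), and the call was lost without replicate 3 at 2.6 mg/ml with the block (0.29, adjusted p = 0.646). The densities share the suspension libraries, so these values are not independent of each other.

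The density series itself was compared next. In edgeR, 0 of the 10 genes showed a linear trend over the 4 densities and 0 differed between 4.4 and 1.7 mg/ml, where 0.00722% of all genes were called in each comparison. At an unadjusted p under 0.05 there were 0 of the 10 in each, DESeq2 called 0, and the block gave 0, where it called 1.45% and 1.73% of all genes. Arpc2 had group means of 1131 ± 245 CPM, 1001 ± 126 CPM, 1369 ± 545 CPM, and 1286 ± 711 CPM (SD, n = 3) from 1.7 to 4.4 mg/ml. Wasf2 had 169 ± 31.9 CPM, 199 ± 8.07 CPM, 149 ± 29.4 CPM, and 142 ± 13.7 CPM. Between 4.4 and 1.7 mg/ml the log2 difference was 0.19 (SE 0.40, adjusted p = 0.996) for Arpc2 and −0.26 (SE 0.36, adjusted p = 0.991) for Wasf2. When the 6 groups were ordered by their mean, all 5 pairs of neighboring groups overlapped for each of the 10 genes. The highest group mean was 1.13 times the lowest for Nckap1l and 2.10 times for Wasl, the extremes of the 10 genes.

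For any difference among the 6 groups, 0 of the 10 genes were called without the block (4.9% of all genes, 0 of 10 at an unadjusted p under 0.05, and 0 by DESeq2), and 1 was called with it (24.3% of all genes), Arpc2 with an adjusted p of 0.0957. Between the suspension groups, edgeR called 0 of the 10 and 0% of all genes, with and without the block, at an unadjusted p under 0.05 there were 0 of the 10 (3 with the block), and DESeq2 called 0. Their largest difference was in Actr2, 0.74 on the log2 scale (SE 0.45, adjusted p = 0.761), of which no direction is given.

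Several of the genes have a paralog that can take the same place, and ratios within a library do not depend on scaling. 7 pairs were listed and 6 tested by an exact permutation test of the log2 count ratio, collagen against suspension, with Benjamini-Hochberg adjustment over the 6. The balance of the ARPC1 paralogs differed. Arpc1a encodes the widely expressed form of this subunit and took a smaller share in collagen. Arpc1b made up 54.8%, 59.7%, and 59.5% of the per-length sum of both in suspension titled plus CCL19, and 57.5%, 60.9%, and 66.8% in suspension titled without CCL19, in replicates 1, 2, and 3. In collagen it made up 67.3%, 65.4%, and 65.9% at 1.7 mg/ml, then 67.6%, 63.2%, and 74.8% in the 2.6 mg/ml gels, 70.4%, 66.4%, and 71.1% in the 3.5 mg/ml gels, and 76.8%, 69.3%, and 78.2% in the 4.4 mg/ml gels. Within a replicate, 11 of the 12 collagen libraries lay above both suspension libraries, the exception being replicate 3 at 1.7 mg/ml. The log2 ratio was 2.14 ± 0.34 in collagen (SD, n = 12) and 1.51 ± 0.25 in suspension (n = 6), a difference of 0.64 (exact permutation p = 0.00102, adjusted p = 0.00614, and adjusted p = 0.00356 with arrangements within replicates). Without replicate 1 the difference was 0.50 and did not pass (exact permutation p = 0.0303, adjusted p = 0.182). Without replicates 2 and 3 it was 0.77 and 0.64 (adjusted p = 0.0364 and 0.0121, exact permutation tests).

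**Figure D4:**
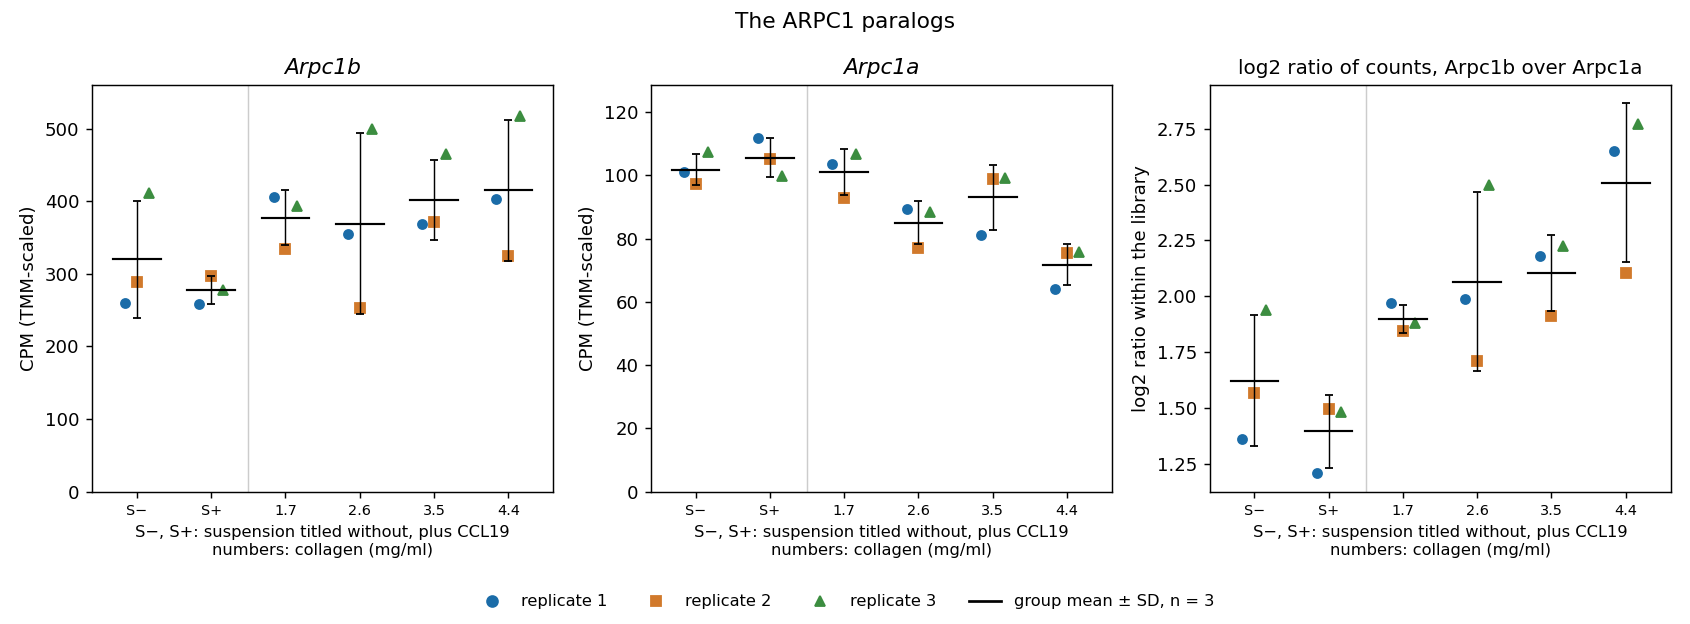
Levels of Arpc1b and Arpc1a in CPM (left and middle, vertical axes) and the log2 ratio of their counts within each library (right) by group (horizontal axes). Points are libraries, lines with bars are mean ± SD of 3 libraries, and the ratio axis does not start at 0. The ratio is 1.62 ± 0.29 in suspension titled without CCL19 (S−), 1.39 ± 0.16 in suspension titled plus CCL19 (S+), and 1.90 ± 0.06, 2.07 ± 0.40, 2.11 ± 0.17, and 2.51 ± 0.35 from 1.7 to 4.4 mg/ml.

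Arpc1a itself ranged over 97.4 to 112 CPM (median 103) in suspension and 64.2 to 107 CPM (median 88.9) in collagen. Its log2 fold change was −0.25 (SE 0.12, adjusted p = 0.190) over all densities and −0.53 (SE 0.18, adjusted p = 0.0735) at 4.4 mg/ml, where it fell, and −0.53 (SE 0.17, adjusted p = 0.0314) there with the block. The call without the block was lost with DESeq2 size factors (adjusted p = 0.119), with no filter on low counts (0.390), without replicate 1, 2, or 3 (0.472, 0.392, and 0.205), and without replicate 2 at 4.4 mg/ml (0.122). At 4.4 mg/ml the 3 libraries held 64.2, 75.4, and 75.8 CPM, below the 97.4 CPM of the lowest suspension library. The other pairs did not pass. In exact permutation tests the log2 ratio of Was over Wasl differed by −0.65 (p = 0.0922, adjusted p = 0.277), Hcls1 over Cttn by 0.34 (p = 0.302, adjusted p = 0.603), Actr3 over Actr3b by 0.27 (p = 0.631, adjusted p = 0.757), Nckap1l over Nckap1 by −0.11 (p = 0.788, adjusted p = 0.788), and Arpc5 over Arpc5l by 0.09 (p = 0.539, adjusted p = 0.757). The pair of Wasf2 and Wasf1 was not tested because Wasf1 had a median of 2.5 counts. In each library the blood cell form was the more abundant, with 94.5 to 99.1% of the per-length sum for Nckap1l over Nckap1 and 97.0 to 99.4% for Hcls1 over Cttn.

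The other genes of the pathway, 50 in 6 lists by role, were taken through the comparison of collagen with suspension. Of the other Arp2/3 subunits, 0 of 5 were called by edgeR, with or without the block, and 0 by DESeq2 (unadjusted p under 0.05: 0 of 5), with a median log2 fold change of −0.12 that was 0.04 with the block. Of the other WAVE complex genes, 2 of 7 tested were called. Abi1 and Abi3 encode alternative Abl interactor subunits, and they moved in opposite directions. Abi1 was higher, with 55.4 to 107 CPM (median 71.9) in suspension and 71.4 to 182 CPM (median 99.2) in collagen and a log2 fold change of 0.60 (SE 0.20, adjusted p = 0.0602). Abi3 was lower, with 12.2 to 28.9 CPM (median 17.4) and 6.21 to 23.4 CPM (median 10.9) and a log2 fold change of −0.77 (SE 0.23, adjusted p = 0.0376). The list had a median of 0.24, and with the block 3 of 7 were called.

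Of the WASP partners, 1 of 10 tested was called, Trip10, which encodes the F-BAR protein CIP4. It ranged over 40.8 to 92.6 CPM (median 76.8) in suspension and 81.7 to 138 CPM (median 111) in collagen, with a log2 fold change of 0.63 (SE 0.19, adjusted p = 0.0345), and with the block 6 of 10 partners were called, 4 higher and 2 lower. Of the GTPases and exchange factors, 0 of 6 were called without the block (1 of 6 at an unadjusted p under 0.05, and 0 by DESeq2), and 3 were called with it. These 3 are named after their values were seen. Cdc42, the GTPase that activates WASP, was higher with 0.53 (SE 0.15, adjusted p = 0.0164), and the exchange factors Dock2 and Dock8 were lower with −0.42 (SE 0.16, adjusted p = 0.0590) and −0.73 (SE 0.16, adjusted p = 0.00308).

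Of the list of other Arp2/3 activators, 1 of 9 was called, Dbnl. It encodes an actin-binding adaptor of the drebrin family, and these data do not show whether it activates the complex. Dbnl ranged over 327 to 580.1 CPM (median 442) in suspension and 129 to 334 CPM (median 231) in collagen. Its log2 fold change was −0.92 (SE 0.17, adjusted p = 0.00286), 0.527 times the suspension level, and the values of collagen and suspension overlapped in 1 library. The median of the list was −0.17. Of the inhibitors and branch removers, 4 of 10 were called, 1 higher and 3 lower. Arpin, which encodes an inhibitor of the complex, ranged over 19.6 to 106 CPM (median 42.6) in suspension and 13.6 to 44.7 CPM (median 21.4) in collagen, with a log2 fold change of −1.09 (SE 0.31, adjusted p = 0.0294). Gmfg, a branch remover of blood cells, was higher, with 11.8 to 24.3 CPM (median 19.0) and 16.6 to 54.1 CPM (median 23.2) and a log2 fold change of 0.73 (SE 0.28, adjusted p = 0.0954). Pick1, whose product binds the complex, was scarce, with 2.43 to 4.15 CPM (median 3.26) and 1.30 to 2.99 CPM (median 2.11) and a log2 fold change of −0.65 (SE 0.24, adjusted p = 0.0856). Coro7, a coronin, was the 1 other gene called and was named after its values were seen, with −0.58 (SE 0.19, adjusted p = 0.0528). The eosinophil markers, which were lower in collagen, also differed between these libraries, and their part in the lower levels of Dbnl, Abi3, Arpin, Pick1, and Coro7 was not tested. Beside the counts of the lists, 20.2% of all genes were called without the block, 7.78% higher and 12.4% lower, and 34.8% with it, 15.6% higher and 19.3% lower.

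**Figure D5:**
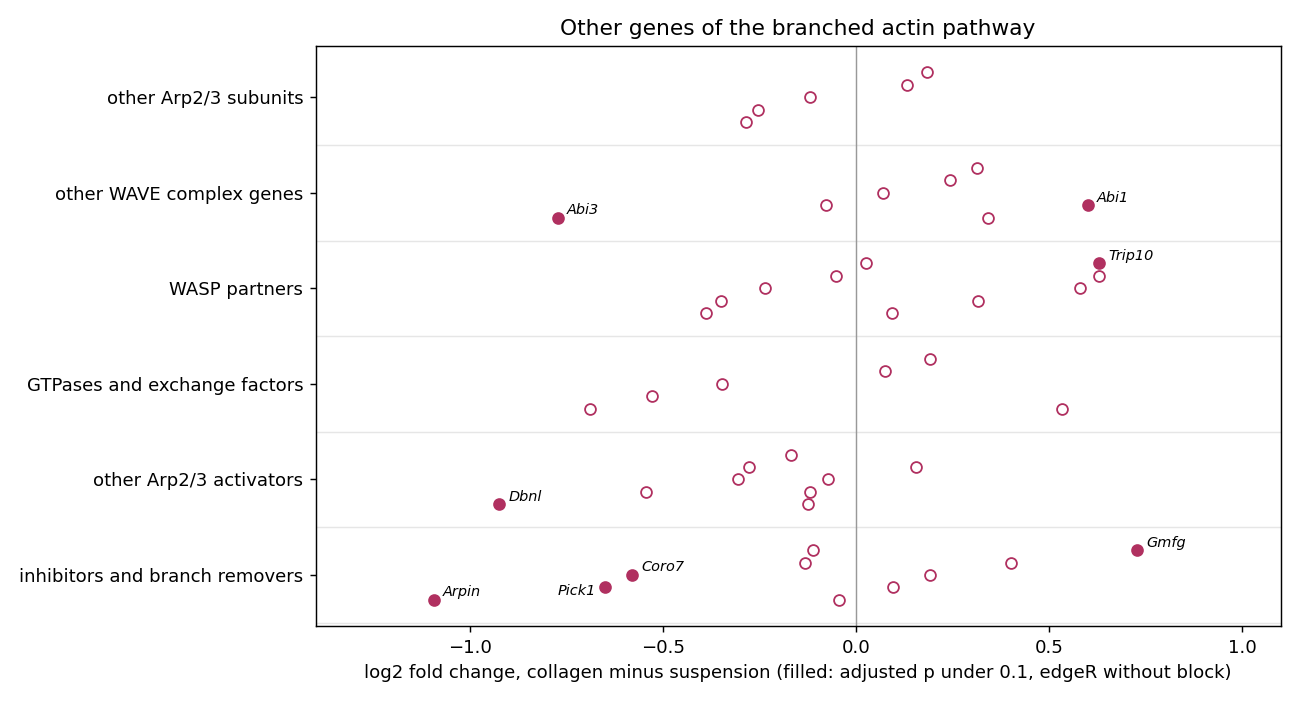
Log2 fold change, collagen over suspension (horizontal axis), of the 47 pathway genes tested besides the 10, by list (vertical axis). Filled and named points passed an FDR of 0.1 in edgeR without the block, 3 of them higher (Abi1, Trip10, Gmfg) and 5 lower (Arpin, Dbnl, Abi3, Pick1, Coro7).

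Over the 18 libraries, which share replicate and depth effects, the log2 CPM of some of the 10 genes varied together. As a description, Pearson's r was 0.94 (0.89 within replicates) for Actr3 and Arpc2, 0.91 (0.81 within replicates) for Actr3 and Arpc5, and 0.77 (0.73 within replicates) for Arpc1b and Arpc2. It was −0.76 (−0.72 within replicates) for Wasf2 and Arpc2 and −0.79 (−0.80 within replicates) for Was and Wasl. For the subunit gene Actr2 it was 0.39 (0.04 within replicates) with Arpc2 and 0.34 (0.17 within replicates) with Arpc1b. With Actr3 it was 0.59 (0.36 within replicates), and with Arpc5 0.75 (0.63 within replicates). Outside the lists, the gene most like each by Pearson's r (n = 18) was Capn1 for Was (r = 0.970), Cflar for Wasl (r = 0.960), Anks1 for Wasf2 (r = 0.938), Fah for Nckap1l (r = 0.943), and Srsf1 for Actr2 (r = 0.966). It was Mkln1 for Actr3 (r = 0.978), Psmd10 for Arpc1b (r = 0.914), Riok3 for Arpc2 (r = 0.975), Metap2 for Arpc5 (r = 0.965), and Dad1 for Hcls1 (r = 0.954). By the median r over the 10 genes, Nmd3 (0.695), Ythdf2 (0.685), and Eif2s1 (0.682) came first.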

How the data were processed

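RNA of 18 libraries (6 groups of 3) was sequenced with a stranded poly(A) kit. The authors deposited 1 matrix of raw whole-number counts per Ensembl gene, from reads aligned with STAR 2.7.0f to GRCm38. The counting tool, the use of strand, and the treatment of multi-mapping reads are not given in the sources used here. 0 columns of per-sample values were left unused. Symbols and positions came from the GRCm38 annotation, and promoters from RefSeq (GRCm38.p6).

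Counts were tested with edgeR 4.0.16 in R 4.3.3 (TMM scaling, filterByExpr with a minimum count of 10 and a minimum total of 15, quasi-likelihood F-test on all 18 libraries with 1 mean per group, Benjamini-Hochberg adjustment over 13844 genes, FDR 0.1). DESeq2 1.42.0, a replicate block, loess offsets for GC content and length (span 0.5), other scaling, no filter, and omission of each replicate were alternatives. Log2 CPM used a prior count of 2 and paralog ratios a prior of 0.5. A level resting on 3 counts is 0.107 to 0.23 CPM, depending on the library, and this covers counting error only. Single values were tested by exact two-sided permutation of the absolute difference in means. Scripts were tested on simulated data. No 2 libraries held identical values (153 pairs). Where nothing states separate cultures or mice, p-values measure only the spread between these libraries.

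Replicate numbers pair the libraries because the library names give a shared date and lane for each number. Deviations from group means correlated at 0.434 on average between libraries with the same number (−0.149 to 0.846, over 0.1 in 39 of 45 pairs) and at −0.214 between other libraries. Values with the replicate block are therefore given beside those without it where a call changes.

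The 10 genes were named in every comparison. Of the pathway lists, up to 3 genes with the largest change among those past the threshold were named per list, and other names are stated as chosen after values were seen. The genes and lists were chosen with earlier results of these data known. Fits that omit replicate 2 at 4.4 mg/ml, or replicate 3 at 2.6 mg/ml, were added once the data had been seen.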

Additional observations from a re-analysis of the deposited data

Results flagged for a closer look

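Among the 6 suspension libraries, Arpc1b in replicate 3 of the group titled without CCL19 stood apart, at 411 CPM against 259 to 297 CPM in the other 5. The gap to the nearest library was 0.748 of the whole range, above Dixon's critical value for 6 samples. The 10 genes were each examined this way, and chance alone marks about 1 in 20 groups.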

How the results depend on the processing

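Of 525 values for single genes under an alternative, 445 kept their direction and side of the threshold, 61 newly passed, 5 no longer passed, and 14 changed sign. The 525 cover the 10 genes in collagen against suspension, Wasl at 2.6 mg/ml, and the other collagen comparisons of Wasf2, Arpc2, Actr3, and Arpc1b only. Outside them, signs also changed for Was at 4.4 mg/ml (−0.22 to 0.027), Actr2 at 2.6 mg/ml (−0.31 to 1.00), and Hcls1 at 1.7 mg/ml (−0.10 to 0.35). The FDR of 0.05 reuses the main fit and cannot change a sign. Only Wasf2 in collagen against suspension was called in the main fit, so only its 15 values could lose a call. It was called in 10 of these 15. Most values that kept their side were not called in either fit. The cause of the shifts was not tested, except that a stricter FDR lowers counts by construction. For collagen against suspension, 1 of the 10 genes was called, and the count was 4 with the replicate block, 3 with DESeq2, 4 with DESeq2 and the block, 3 with GC and length offsets and the block, 0 at an FDR of 0.05, and 0 to 1 when 1 replicate was omitted. With the block it was 5 without replicate 2 at 4.4 mg/ml and 4 without replicate 3 at 2.6 mg/ml. For any difference among groups (0), the same 5 fits with a block gave 1, 3 (DESeq2), 1 (offsets), 2, and 2. At 1.7 mg/ml (0), DESeq2 with the block gave 1. At 2.6 mg/ml (0), the block gave 1, DESeq2 with it 1, offsets with it 1, and the block without replicate 2 at 4.4 mg/ml 3. At 3.5 mg/ml (0), these gave 3, 4, 3, and 3, and the block without replicate 3 at 2.6 mg/ml 3. At 4.4 mg/ml (0), they gave 4, 4, 3, 4, and 5, and DESeq2 and no filter gave 1 each. Over all genes, these fits with a block called, in the same order, 3363, 5298, 3697, 3546, and 3648 for any difference, 2990, 3665, 3374, and 3663 at 2.6, 2551, 3200, 2564, 3165, and 3137 at 3.5 mg/ml, and, in the densest gels, 4420, 5022, 4818, 3600, and 5079, of 13844 to 14368 tested. DESeq2 with the block called 1095 at 1.7 mg/ml, and without it 2808 at 4.4 mg/ml, where no filter gave 2384 of 29875. Counts for the density trend, the ends of the series, and the suspension groups were 0 in every setting. In all, 2790 genes were called for collagen against suspension, 4823 with the block, 3414 with DESeq2, 5381 with DESeq2 and the block, 5123 with offsets and the block, 5401 and 5175 with the block without each doubted library, 1793 at an FDR of 0.05, and 631 to 2958 without 1 replicate or library. The block changed no other call of the 10 genes.

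By single-gene exact permutation, 4 of 10 had a p under 0.05, 2 on total counts, and 1 to 4 without 1 replicate. The paralog count of 1 fell to 0 without replicate 1. Some log2 values changed sign when a replicate or library was omitted. Wasf2 at 2.6 mg/ml ranged from −0.63 to 0.12 (without replicate 1). For collagen against suspension, Nckap1l ranged from −0.12 (without replicate 2) to 0.20, Hcls1 from −0.019 (without replicate 1) to 0.36, and Actr2 from −0.34 (without replicate 3) to 0.38, with −0.12 without replicate 3 at 2.6 mg/ml, and −0.11 with the block as well. Negative values without replicate 3 were also found for the trend per mg/ml of Actr3 (−0.033 to 0.20) and Arpc2 (−0.039 to 0.20), and for 4.4 against 1.7 mg/ml of Actr3 (−0.17 to 0.56), Arpc1b (−0.026 to 0.28), and Arpc2 (−0.18 to 0.44). Nckap1l was −0.012 with no filter, and Actr2 −0.10 with offsets and −0.12 with offsets and the block. Among 14 alternatives, the pathway genes were called in 13 (Dbnl), 12 (Arpin), 11 (Abi3, Trip10), 10 (Abi1, Gmfg, Coro7), and 8 (Pick1). Low counts limit Wasf1, Wasf3, and Wipf3, which were not tested.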

Other observations

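The log2 ratio of Arpc1b over Arpc1a was highest at 4.4 mg/ml among the 4 densities in each replicate, at 2.65, 2.10, and 2.77 in replicates 1, 2, and 3. This was chosen after its values were seen and was not tested. Wasf1, which encodes WAVE1, had 0 to 2 counts in each suspension library and 0 to 34 counts in the collagen libraries, with 0 in replicate 3 at 1.7 and 3.5 mg/ml and 34 in replicate 3 at 2.6 mg/ml.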
